A study of Mus musculus with 29 samples.

Results

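The genes of mitochondrial respiratory complexes II to V were followed through the brains of mice exposed to MPTP, a compound whose metabolite poisons dopamine neurons through complex I. Members were taken by name. Every probe set with a single platform gene symbol beginning with Sdha, Sdhb, Sdhc, Sdhd, Uqcr, Cox4, Cox5, Cox6, Cox7, Cox8 or Atp5 was included. Where a gene had several probe sets, the brightest on average across the 29 arrays was used. This gave 48 genes of 12393 on the array: 4 genes of complex II and 3 assembly factors that share the Sdha prefix, 8 of complex III, 16 of complex IV and 17 of complex V. The choice used gene names and overall brightness, not any contrast between samples.

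Affymetrix arrays measured total RNA from the prefrontal cortex (18 arrays) and the caudate-putamen (11 arrays) of TgS mice, which express human AChE-S, TgR mice, which express human AChE-R, and the parent strain FVB/N, on whose background both transgenic lines were kept. AChE is acetylcholinesterase, the enzyme that breaks down acetylcholine, and S and R are variants of it. MPTP mice received 4 injections of 20 mg/kg at 2 h intervals, 80 mg/kg in all, and tissue was taken 4 days later. MPTP prefrontal cortex had 2 arrays each for TgS, TgR and FVB/N, and naive prefrontal cortex had 4 each. MPTP caudate-putamen had 2 arrays for TgS, 1 for TgR and 2 for FVB/N, and naive caudate-putamen had 2 for each strain. Per the labels, 6 mice of each strain received MPTP and 6 received saline, 36 mice in all, while the control arrays are labelled naive, and whether these came from the saline mice is not stated. The sources used here do not give the promoter of the transgenes, the number of mice behind an array or the sex of the mice, so the p-values below measure the spread between arrays, which may be technical. The description of FVB/N naive caudate-putamen replicate 2 calls it MPTP-exposed, against its title, source name and characteristics, which were followed.

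Oxidative phosphorylation passes electrons from NADH and succinate along complexes of the inner mitochondrial membrane to oxygen, and the proton gradient built on the way drives ATP synthesis. Complex II (succinate dehydrogenase) feeds electrons from the tricarboxylic acid cycle into ubiquinone, complex III hands them on to cytochrome c, complex IV (cytochrome c oxidase) reduces oxygen, and complex V is the ATP synthase. All genes described here are nuclear. Several complex IV subunits exist as a widely expressed isoform and an isoform named for muscle, testis or lung. Neurons depend heavily on this pathway for the ion pumping that follows synaptic activity.

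RefSeq promoter windows (GRCm38.p6, 250 bases before to 50 after the annotated start) were found for 37 of the 48 genes. The 5 printed here belong to the gene of each complex with the strongest called fall in the MPTP prefrontal cortex, among members with a mean log2 signal of at least 10 and a window, and to Uqcrc1, the member that was called higher there. They are the chr4:140961021-140961320 window of Sdhb on the plus strand, chr4:116075021-116075320 of Uqcrh on the minus strand, chr1:36691237-36691536 of Cox5b on the plus strand, chr9:44920693-44920992 of Atp5l on the minus strand and chr9:108936398-108936697 of Uqcrc1 on the plus strand. Each reads 5′ to 3′ on the strand of the gene, and capitals mark the NRF1 core GCGCATGC or its complement GCATGCGC and the ETS motif CCGGAAG or its complement CTTCCGG.
Sdhb: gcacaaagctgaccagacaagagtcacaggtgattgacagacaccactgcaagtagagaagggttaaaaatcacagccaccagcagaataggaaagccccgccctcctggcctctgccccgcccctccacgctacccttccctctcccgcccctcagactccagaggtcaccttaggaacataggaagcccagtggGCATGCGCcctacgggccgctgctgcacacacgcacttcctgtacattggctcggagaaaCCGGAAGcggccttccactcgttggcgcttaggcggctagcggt
Uqcrh: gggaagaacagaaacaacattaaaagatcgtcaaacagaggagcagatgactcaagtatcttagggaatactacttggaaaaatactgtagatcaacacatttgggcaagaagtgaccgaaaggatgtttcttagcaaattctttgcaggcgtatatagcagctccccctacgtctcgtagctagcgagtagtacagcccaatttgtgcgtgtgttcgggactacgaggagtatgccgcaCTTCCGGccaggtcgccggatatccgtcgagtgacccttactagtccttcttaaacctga
Cox5b: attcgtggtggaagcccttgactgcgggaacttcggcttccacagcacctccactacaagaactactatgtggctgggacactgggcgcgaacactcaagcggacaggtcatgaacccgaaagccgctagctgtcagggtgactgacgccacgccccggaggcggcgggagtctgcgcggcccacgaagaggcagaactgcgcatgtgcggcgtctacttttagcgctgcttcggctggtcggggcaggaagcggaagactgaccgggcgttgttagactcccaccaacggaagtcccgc
Atp5l: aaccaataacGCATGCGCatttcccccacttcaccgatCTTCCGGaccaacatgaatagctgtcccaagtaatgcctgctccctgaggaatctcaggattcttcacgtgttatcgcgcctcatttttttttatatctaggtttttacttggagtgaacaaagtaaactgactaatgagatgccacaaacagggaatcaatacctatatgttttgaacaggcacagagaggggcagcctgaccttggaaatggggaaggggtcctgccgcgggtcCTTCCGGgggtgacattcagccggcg
Uqcrc1: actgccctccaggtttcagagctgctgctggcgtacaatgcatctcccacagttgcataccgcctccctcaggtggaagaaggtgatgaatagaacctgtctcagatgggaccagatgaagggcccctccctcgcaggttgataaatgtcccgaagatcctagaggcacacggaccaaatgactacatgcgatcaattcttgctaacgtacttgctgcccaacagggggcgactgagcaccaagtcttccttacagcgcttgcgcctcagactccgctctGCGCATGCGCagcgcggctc
NRF1 and the ETS-family factor GABP are textbook regulators of nuclear respiratory genes. On either strand, the NRF1 core was found in 7 of the 37 member windows (18.9%) and in 2.71% of all 32851 windows. The ETS motif was found in 14 (37.8%) against 8.86% of all windows, and the GC box GGGCGG, complement CCGCCC, in 16 (43.2%) against 35.7%. The NRF1 and ETS motifs do not overlap in letters, but the 2 orientations of the NRF1 core do, and in Uqcrc1 they share bases. The Sdhb and Atp5l windows hold both motifs, Uqcrh holds the ETS motif, Uqcrc1 the NRF1 core, and Cox5b neither in these letters.

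Values are log2 signals, so a difference of 1 is a doubling, and levels are compared only within a probe set. The mean signal of the 48 genes lay between 11.11 and 11.23 in MPTP prefrontal arrays, against 11.28 to 11.39 in naive prefrontal replicates 3 and 4, and between 11.29 and 11.40 in the caudate-putamen. Naive prefrontal replicates 1 and 2 of every strain, 6 arrays, stood apart from the other 23. In them the X-inactivation RNA Xist read 8.62 to 10.61 and the Y-linked Eif2s3y 3.42 to 3.83, against 6.78 to 7.24 and 8.41 to 9.20 in the other arrays. They were left out of the main tests, and MPTP prefrontal arrays were set against naive replicates 3 and 4 (6 arrays). Two-sided limma tests over 22626 probe sets were used, and a gene is called at a Benjamini-Hochberg adjusted p under 0.05. Errors with ± are standard errors unless named SD.

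In the prefrontal cortex of MPTP mice, 27 of the 48 genes were lower than in naive mice and 1, Uqcrc1, was higher. The changes were small: the called falls were 1.07-fold to 1.33-fold. Of all probe sets tested, 50.5% were called in this comparison, 22% lower and 28.5% higher, so a call as such was common and the members' share of falls lay above that background. The median log2 difference over the 48 genes was -0.16, against 0.02 over all probe sets. Among 3800 other probe sets of similar brightness (mean log2 signal of at least 10, as in 40 of the members), 29.4% were lower and 31.2% higher, with a median of 0.005. The 6 MPTP arrays lay wholly below the 6 naive arrays for 17 of the 48 genes, against 8.42% of all probe sets, and wholly above for 1, against 12.5%. In a bulk sample, fewer cells of a type and less RNA per cell cannot be told apart.

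**Figure D1:**
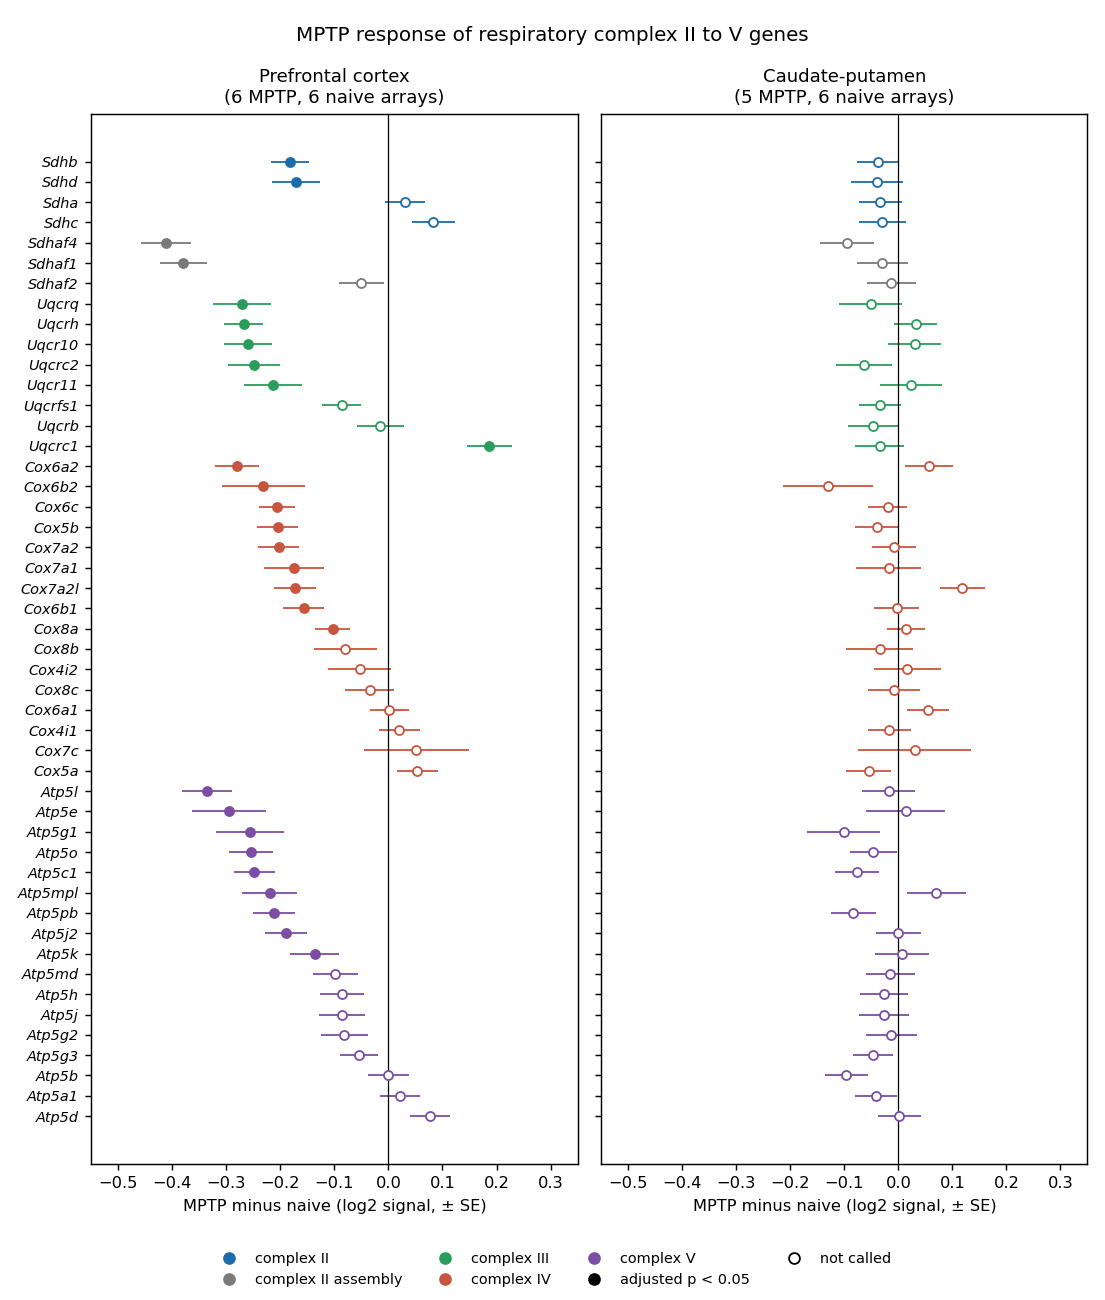
Log2 difference of MPTP minus naive arrays for each of the 48 genes, in the prefrontal cortex on the left and the caudate-putamen on the right; points are means over the 3 strains, bars are standard errors, and filled points were called. On the left 27 filled points lie below 0 and Uqcrc1 above it, and on the right there are 0 filled points.

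Complex II oxidises succinate, and 2 of its 4 subunit genes fell. Sdhb, the iron-sulfur subunit whose promoter is shown above, ran from 11.61 to 11.71 (median 11.645) in the 6 MPTP prefrontal arrays and from 11.77 to 11.89 (median 11.825) in the 6 naive arrays. The groups did not overlap, and Sdhb fell by 0.18 ± 0.04 (adjusted p = 0.000455). Sdhd, a membrane anchor, fell by 0.17 ± 0.04 (adjusted p = 0.00395), with 11.27 to 11.34 in MPTP arrays and 11.29 to 11.60 in naive arrays, so that the lowest naive array lay within the MPTP range. Sdha, the flavoprotein that oxidises succinate, and Sdhc, the other anchor, were not called, at 0.03 ± 0.04 and 0.08 ± 0.04. Whether the 4 subunits differ from each other in response was not tested.

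The complex II assembly factors gave the 2 most negative differences of all 48 genes. Sdhaf4, which escorts the flavinated Sdha subunit, ran from 9.86 to 10.14 (median 10.105) in MPTP arrays and from 10.36 to 10.60 (median 10.465) in naive arrays. Every MPTP array was below every naive one, and the gene was 1.33-fold lower (-0.41 ± 0.05, adjusted p = 2.80e-06). Sdhaf1, which helps to place iron-sulfur clusters in Sdhb, was 1.30-fold lower (-0.38 ± 0.04, adjusted p = 3.41e-06). Its MPTP arrays read 7.91 and 7.89 in TgS, 8.27 and 8.12 in TgR, and 7.86 and 7.90 in FVB/N, while its naive arrays read 8.34 and 8.35 in TgS, 8.27 and 8.47 in TgR, and 8.45 and 8.35 in FVB/N. One TgR MPTP array equalled the lowest naive array, and all others were below the naive range. Sdhaf2, the factor for attaching FAD to Sdha, was not called (-0.05 ± 0.04).

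Complex III passes electrons from ubiquinol to cytochrome c, and 5 of its 8 genes fell while 1 rose. Uqcrh, the hinge protein beside cytochrome c1, ran from 11.90 to 12.06 (median 11.965) in MPTP arrays and from 12.18 to 12.28 (median 12.235) in naive arrays. The ranges were separate, and Uqcrh fell by 0.27 ± 0.04 (adjusted p = 1.77e-05). The small subunits Uqcrq (-0.27 ± 0.05), Uqcr10 (-0.26 ± 0.05) and Uqcr11 (-0.21 ± 0.05) and the core protein Uqcrc2 (-0.25 ± 0.05) also fell. Of these, Uqcrq, Uqcr10 and Uqcr11 did not overlap between groups, while Uqcrc2 did. Uqcrc1, the partner of Uqcrc2 in the core, moved the other way: it ran from 12.01 to 12.17 (median 12.11) in MPTP arrays and from 11.86 to 11.97 (median 11.92) in naive replicates 3 and 4. It rose by 0.19 ± 0.04 (adjusted p = 0.00137) with no overlap, but naive replicates 1 and 2 read 12.10 to 12.36, with a median of 12.27 above the MPTP range, and against them Uqcrc1 fell by 0.145 (adjusted p = 0.005). The Rieske iron-sulfur protein gene Uqcrfs1 (-0.09 ± 0.04, adjusted p = 0.0547) and Uqcrb (-0.015 ± 0.043) were not called.

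Complex IV reduces oxygen, and 9 of its 16 genes fell. Cox5b, whose promoter lacked the motifs searched, ran from 12.71 to 12.89 in MPTP arrays and from 12.98 to 13.08 in naive arrays. With no overlap it fell by 0.205 ± 0.038 (adjusted p = 0.000302). Cox6c ran from 12.98 to 13.11 (median 13.08) in MPTP arrays and from 13.20 to 13.35 (median 13.27) in naive arrays, again with separate ranges, and fell by 0.21 ± 0.03 (adjusted p = 9.26e-05). Cox7a2, Cox6b1 and Cox8a, common isoforms of their subunits, fell by 0.20 ± 0.04, 0.16 ± 0.04 and 0.10 ± 0.03. Cox7a2l, the supercomplex factor SCAF1 that joins complexes III and IV, fell by 0.17 ± 0.04. The 4 genes just named also had separate ranges. Among the common isoforms Cox4i1 and Cox6a1 were not called: Cox4i1 ran from 13.07 to 13.23 in MPTP arrays and from 13.07 to 13.21 in naive arrays (0.02 ± 0.04), and Cox6a1 differed by 0.00 ± 0.04. Cox5a (0.05 ± 0.04) was not called either.

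The restricted isoforms of complex IV had mean log2 signals under 10 on these arrays, the highest of them Cox8c with 9.13. The median over all probe sets was 7.61 to 7.78 per array. Cox6a2 (mean 7.04), Cox6b2 (6.95), Cox4i2 (6.62), Cox7a1 (6.26) and Cox8b (6.24) lay below it, as did the probe set of Cox7c (7.07). Whether these RNAs were present at all was not tested. Cox6a2, the heart and muscle form of subunit 6A, read 6.76 to 6.99 in MPTP arrays and 6.90 to 7.47 in naive arrays, overlapping, and fell by 0.28 ± 0.04 (adjusted p = 3.32e-05). Cox6b2, the testis form of 6B, fell by 0.23 ± 0.08 (adjusted p = 0.0197) and Cox7a1, the muscle form of 7A, by 0.175 ± 0.056 (adjusted p = 0.0156). Cox8b (-0.08 ± 0.06), Cox8c (-0.035 ± 0.045), Cox4i2 (-0.05 ± 0.06) and Cox7c (0.05 ± 0.10) were not called. Cox7c, a common subunit, is listed with these because its probe set was dim, with 5.72 to 7.84 over all arrays. Of the 3 heart and muscle isoforms, Cox6a2 and Cox7a1 fell and Cox8b was not called. Among 8 markers of striated muscle 4 (Myh1, Myh4, Mylpf and Tnnt3) fell, and the mean signal of the 8 ran from 5.82 to 5.92 in MPTP and from 6.01 to 6.14 in naive prefrontal arrays. Against naive replicates 1 and 2 (6.00 to 6.35), 6 of the 8 were lower. Their part in these falls was not tested.

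Complex V makes ATP, and 9 of its 17 genes fell. Atp5l, which encodes subunit g of the membrane part, ran from 11.26 to 11.55 (median 11.475) in MPTP arrays and from 11.65 to 11.89 (median 11.775) in naive arrays. The ranges were separate, and Atp5l was 1.26-fold lower (-0.34 ± 0.05, adjusted p = 1.86e-05), the strongest fall among the complex V genes. The central stalk genes Atp5e (epsilon) and Atp5c1 (gamma) fell by 0.295 ± 0.068 and 0.25 ± 0.04. The peripheral stalk genes Atp5o (OSCP) and Atp5pb (subunit b) fell by 0.255 ± 0.041 and 0.21 ± 0.04. Each of these 4 had MPTP arrays wholly below the naive ones. The membrane genes Atp5mpl, Atp5j2 and Atp5k fell by 0.22 ± 0.05, 0.19 ± 0.04 and 0.14 ± 0.05, with overlap.

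Other genes of the ATP synthase were not called. Atp5b, the beta subunit that forms the ATP-making sites, ran from 13.07 to 13.22 (median 13.11) in MPTP arrays and from 13.06 to 13.17 (median 13.125) in naive arrays, a difference of 0.00 ± 0.04. Atp5a1, the alpha subunit, differed by 0.02 ± 0.04 and Atp5d, the delta subunit of the central stalk, by 0.08 ± 0.04. Whether these genes differ in response from those that fell was not tested. Small negative differences that were not called were those of Atp5md (-0.10), Atp5h (-0.09) and Atp5j (-0.09). The c-ring is encoded by 3 genes with the same mature protein, and of these Atp5g1 fell by 0.26 ± 0.06 (adjusted p = 0.00279), while Atp5g2 (-0.08 ± 0.04) and Atp5g3 (-0.055 ± 0.035) were not called. Against naive replicates 1 and 2, where 41.4% of all probe sets were lower, Atp5g1 (-0.30), Atp5g2 (-0.175) and Atp5g3 (-0.11) were all called lower. Whether the 3 c-ring genes differ from each other in response was not tested.

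**Figure D2:**
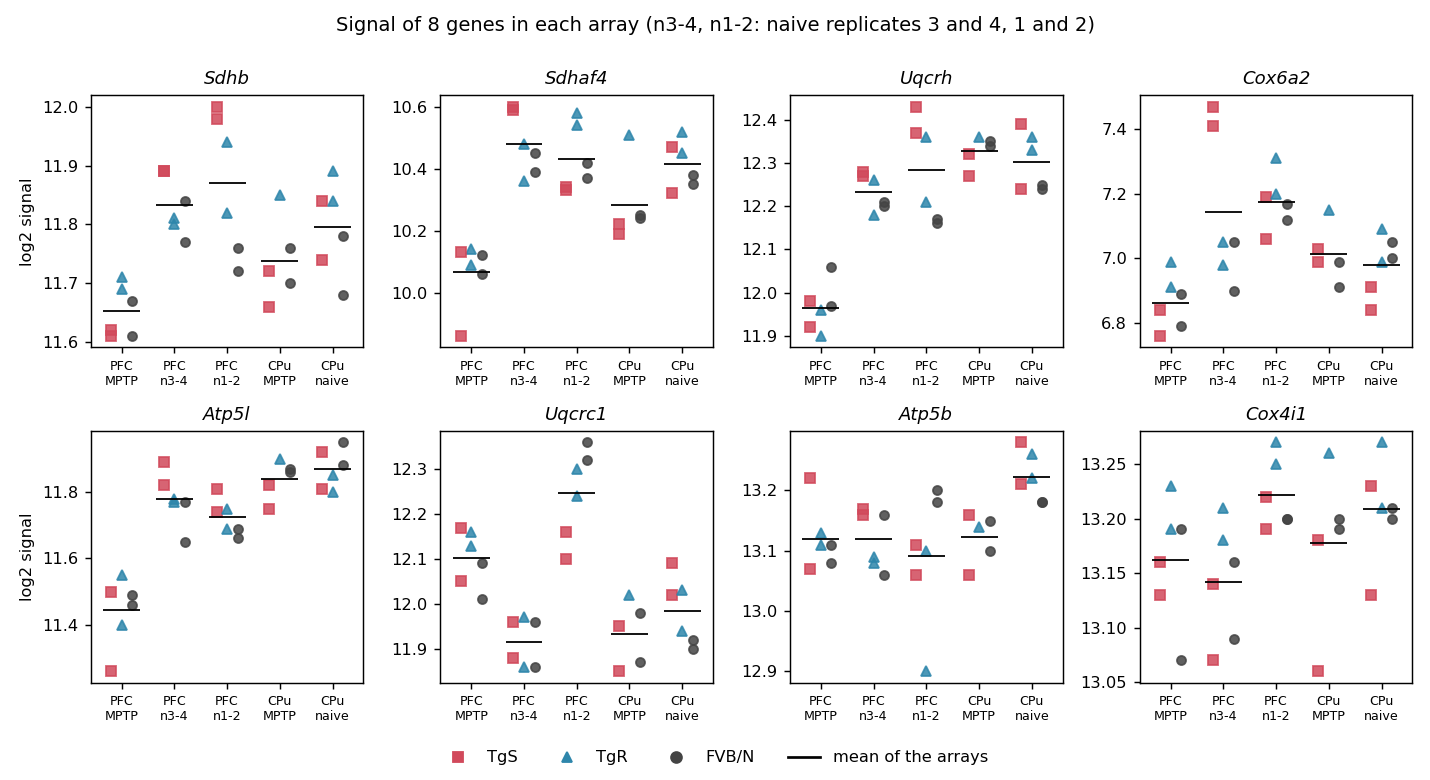
Log2 signal of 8 genes in each of the 29 arrays, by region and treatment, with TgS, TgR and FVB/N as separate symbols and the mean of the arrays as a line; axes differ between panels. For Sdhb, Sdhaf4, Uqcrh and Atp5l the MPTP prefrontal arrays lie below both sets of naive prefrontal arrays, while for Uqcrc1 their median lies between the medians of the sets, and Atp5b and Cox4i1 overlap.

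The falls were also counted by signal level. Among the 9 genes with a mean log2 signal of at least 13, 4 fell and the median difference was -0.015. Among the 31 genes between 10 and 13, 19 fell, with a median of -0.17. Among the 8 genes under 10, 4 fell, with a median of -0.13. The part of signal level in these differences was not tested.

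Genes with several probe sets allowed the same RNA to be read more than once. Of the members, 26 had several, which added 38 probe sets. Of these 38, 26 fell and 4 rose in the MPTP prefrontal cortex. In 20 of the 26 genes at least 1 probe set fell and in 11 every probe set fell, so that in the rest some probe sets fell and others were not called. In 0 genes did 1 probe set fall and another rise. Of the 38 other probe sets, 21 had a more negative difference than the one used for the gene. The second probe set of Atp5o fell by 0.60 ± 0.06 against 0.255 for the one used, and that of Cox6c by 0.51 ± 0.06 against 0.21. When all probe sets of a gene were averaged, 25 of the 28 called members kept their call and 3 lost it. In 5 genes, Atp5h, Cox5a, Cox6a1, Sdhaf2 and Uqcrb, the probe set used was not called and another one fell. The dimmer Uqcrb probe set (mean 10.7) fell by 0.36 ± 0.04, against a difference of -0.015 for the bright one (mean 13.2). For such genes the size of the change depends on the probe set, and some probe sets (those with the suffixes s_at and x_at) may also match related transcripts or pseudogenes, so that their levels are uncertain.

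**Figure D3:**
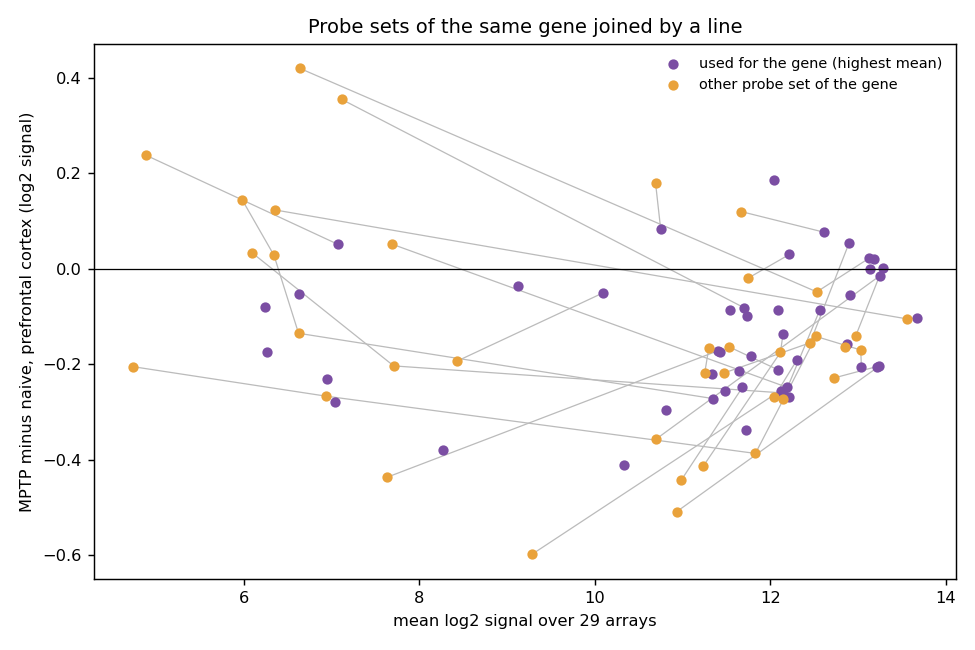
MPTP minus naive difference in the prefrontal cortex (log2 signal) against the mean log2 signal over 29 arrays for all 86 probe sets of the 48 genes; lines join probe sets of a gene. Most points lie below 0 over the whole range of signal, and for Uqcrb, Cox6c and Atp5o the dimmer probe set lies lower than the brighter one. Of the 38 dimmer probe sets, 21 lie lower than the one used for the gene.

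The choice of naive arrays changed several results. The labels spell the region in 2 ways, and MPTP prefrontal arrays share a spelling with naive replicates 1 and 2, not with 3 and 4. The hybridisation control bioB likewise read 7.48 to 7.90 in MPTP arrays, 6.71 to 7.22 in naive replicates 3 and 4, and 7.43 to 8.06 in naive replicates 1 and 2. With replicates 3 and 4 as controls, this label set and MPTP cannot be told apart. With replicates 1 and 2 as controls, which differ from the MPTP arrays in Xist and Eif2s3y and range lower in the 5′ minus 3′ signals of actin (-2.30 to -0.79, against -0.83 to -0.62 in MPTP arrays) and Gapdh (-0.66 to 0.01, against 0.03 to 0.09), 34 genes fell and 5 rose, against 41.4% and 24.8% of all probe sets (66.1% called in all), with a median of -0.18 over the 48 genes and -0.085 over all probe sets. The members' median thus lay closer to that of all probe sets than with replicates 3 and 4 (-0.16 and 0.02). Of the 27 genes lower against replicates 3 and 4, 24 were also called lower against replicates 1 and 2 and all 27 had a negative difference. The 3 that lost the call were Sdhd (-0.02), Cox8a (-0.01) and Uqcrc2 (-0.12). Genes called lower only against replicates 1 and 2 were Atp5g2 (-0.175), Atp5g3 (-0.11), Atp5h (-0.22), Atp5j (-0.16) and Atp5md (-0.185) of complex V. Cox4i2 (-0.16), Cox6a1 (-0.14), Cox8b (-0.30), Uqcrb (-0.20) and Uqcrc1 (-0.145) were the others. The 5 that rose were Atp5a1 (0.13), Cox7c (0.745), Sdha (0.185), Sdhaf2 (0.11) and Sdhc (0.155). The MPTP arrays lay wholly below replicates 1 and 2 for 17 genes and wholly above for 1, Sdha, against 11.2% and 11.9% of all probe sets. The MPTP arrays enter both comparisons.

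**Figure D4:**
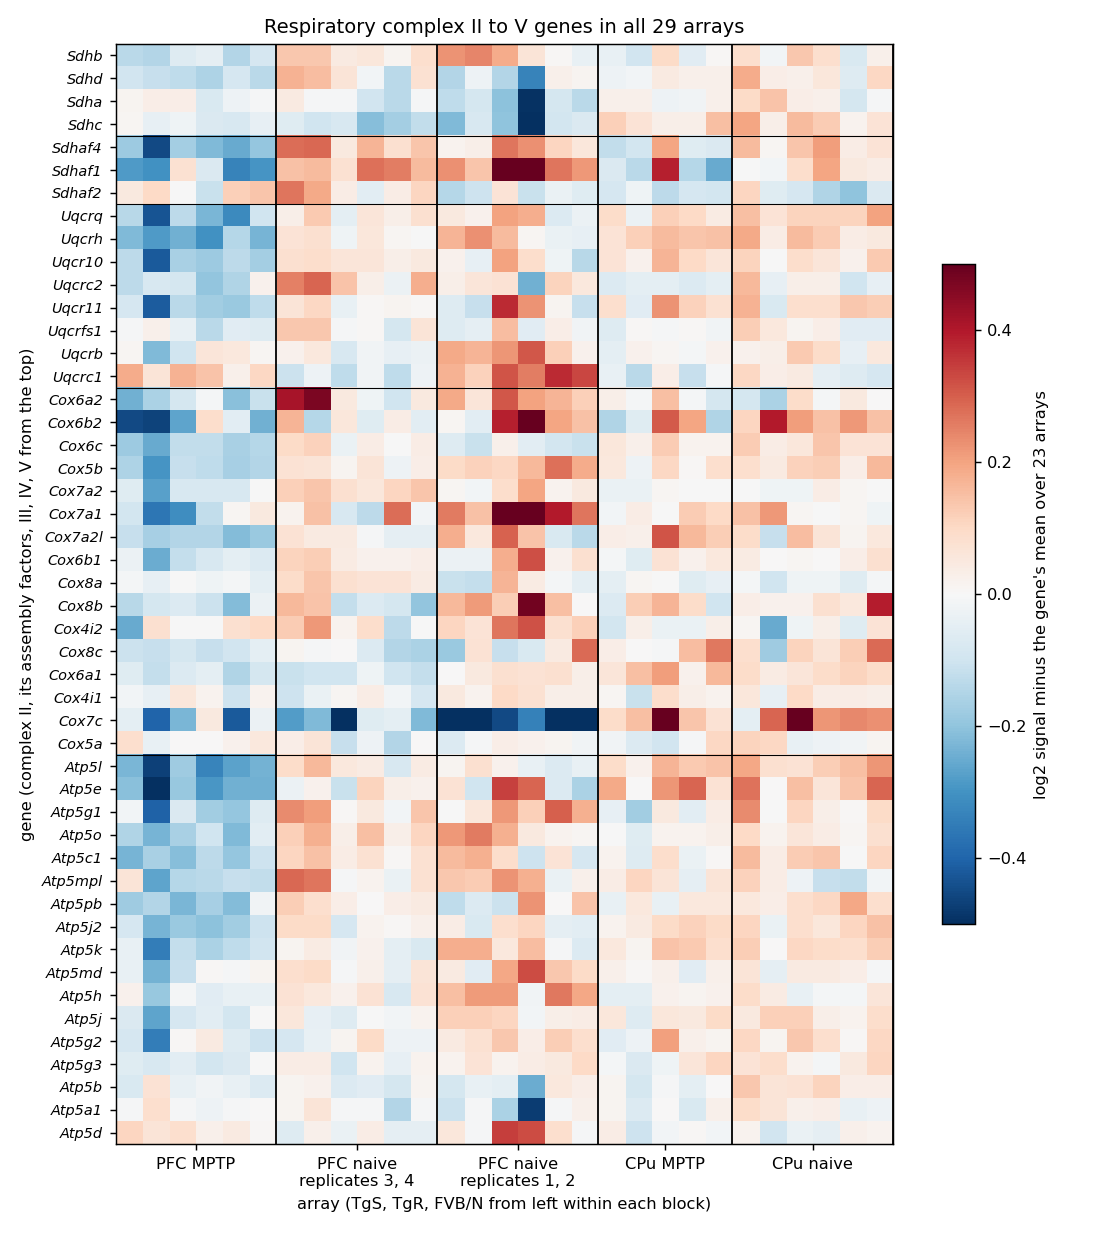
Log2 signal of each gene in each of the 29 arrays minus its mean over the 23 arrays of the tests, on a scale from -0.5 to 0.5 (values beyond are drawn at the ends), with genes in rows by complex and arrays in columns. The MPTP prefrontal block is mostly blue, and Cox7c has its lowest values, from 5.72, in naive prefrontal replicates 1 and 2.

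In the caudate-putamen, 0 of the 48 genes were called after MPTP, against 4.54% of all probe sets, 2.2% higher and 2.35% lower (5 MPTP and 6 naive arrays). At an unadjusted p under 0.05 there were 2, Cox7a2l (0.12 ± 0.04, adjusted p = 0.123) and Atp5b (-0.10 ± 0.04, adjusted p = 0.194). Atp5b read 13.16 and 13.06 in TgS, 13.14 in TgR, and 13.10 and 13.15 in FVB/N after MPTP, and 13.18 to 13.28 in naive arrays, so that the groups did not overlap. It was the 1 gene of 48 wholly below the naive arrays here, against 0.548% of all probe sets, and 0 lay wholly above, against 1.08%. Uqcrh read 12.27 and 12.32 in TgS, 12.36 in TgR, and 12.34 and 12.35 in FVB/N, within the naive range of 12.24 to 12.39. Differences over the 48 genes ran from -0.13 to 0.12, with a median of -0.02 and standard errors of 0.035 to 0.105 (median 0.044).

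The difference between the regional responses was tested directly, and 20 of the 48 genes passed, 19 more negative in the prefrontal cortex and Uqcrc1 more positive, against 14% and 18.5% of all probe sets (32.5% in all). Cox6a2 (-0.34 ± 0.06, adjusted p = 0.000714), Uqcrh (-0.30 ± 0.05, adjusted p = 0.000753) and Sdhaf1 (-0.35 ± 0.06, adjusted p = 0.000875) had the smallest p. By complex they were 1 of 4 complex II genes, 2 of 3 assembly factors, 5 of 8 genes of complex III, 6 of 16 of complex IV and 6 of 17 of complex V. This test shares its arrays with the comparisons above. The label set enters it too, since it separates MPTP from naive arrays in the prefrontal cortex but not in the caudate-putamen. The control bioB read 7.48 to 7.90 in MPTP and 6.71 to 7.22 in naive prefrontal arrays. In the caudate-putamen it read 6.54 to 7.21 and 6.76 to 7.03. A regional difference in response and the label set cannot be told apart here. Leaving out the TgR arrays, whose MPTP caudate-putamen is a single array, left 11 called, and omitting TgS naive replicate 2 or TgS MPTP replicate 1 of the caudate-putamen left 13.

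By strain, the prefrontal differences after MPTP had medians over the 48 genes of -0.26 in TgS, -0.095 in TgR and -0.09 in FVB/N, with 2 arrays on each side. A negative difference in every strain was seen for 33 genes and a positive one for 5. In the caudate-putamen these numbers were 6 and 1. A test of whether the prefrontal response differed by strain called 1 gene, Cox6a2 (adjusted p = 0.0185), against 0.619% of all probe sets. Its TgS arrays read 6.76 and 6.84 after MPTP and 7.41 and 7.47 in naive mice, a difference of -0.64 ± 0.07. The difference was -0.065 ± 0.070 in TgR, with 6.91 and 6.99 against 7.05 and 6.98, and -0.135 ± 0.070 in FVB/N, with 6.79 and 6.89 against 6.90 and 7.05. The TgS naive arrays numbered 3 and 4 are thus the high ones; TgS naive replicates 1 and 2 read 7.19 and 7.06, and the call was lost when either TgS array of either arm was left out. TgS MPTP replicate 2 was the lowest MPTP array for several genes, among them Atp5l, Sdhaf4 and Uqcr10 (11.72, against 11.96 to 12.01 in the other MPTP arrays). Without it 25 genes fell and 1 rose. For the caudate-putamen the test of strain called 0 genes, against 1.18% of all probe sets, with Sdhaf1 nearest (unadjusted p = 0.00309, adjusted p = 0.139).

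Between the regions in naive mice, members differed little. In the prefrontal cortex 6 of the 48 genes were higher and 6 lower than in the caudate-putamen, 12 in all against 53.2% of all probe sets (23.8% higher and 29.4% lower), with a median of -0.04. Cox7c was 1.39-fold lower (-0.47 ± 0.10), with 6.70 to 7.21 in prefrontal and 7.21 to 7.76 in caudate-putamen arrays. Sdhc (-0.225 ± 0.040), Cox6b2 (-0.20 ± 0.08), Cox6a1 (-0.17 ± 0.04), Cox8c (-0.14 ± 0.05) and Atp5b (-0.10 ± 0.04) were also lower. Those higher were Sdhaf2 (0.175 ± 0.042), Cox6a2 (0.16 ± 0.04), Uqcrc2 (0.14 ± 0.05), Sdhaf1 (0.12 ± 0.04), Cox8a (0.12 ± 0.03) and Cox7a2 (0.11 ± 0.04). Without overlap were Cox7a2 and Cox8a above and Atp5b, Cox6a1 and Sdhc below, 2 and 3 of 48, against 9.93% and 12.8% of all probe sets. Most of these 12 calls depended on the naive set. When naive replicates 1 and 2 stood for the prefrontal cortex, 5 of the 12 kept their call and 6 lost it. The remaining gene, Cox6b2, had the opposite sign (0.02).

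After MPTP, 30 of the 48 genes were lower and 2 higher in the prefrontal cortex than in the caudate-putamen, against 28.7% and 25.2% of all probe sets (53.9% in all), with a median of -0.155 (-0.02 over all probe sets). The MPTP prefrontal arrays are those of the comparison with naive mice, so this is not a second, separate result. The control bioB also differed between the 2 regions after MPTP (7.48 to 7.90 in prefrontal, 6.54 to 7.21 in caudate-putamen arrays), and its part was not tested. Atp5e differed most (-0.45 ± 0.07): it read 10.24 to 10.61 in the prefrontal cortex, while the caudate-putamen arrays read 10.99 and 10.80 in TgS, 11.02 in TgR, and 11.09 and 10.87 in FVB/N. The groups did not overlap. Atp5l (-0.41 ± 0.05), Uqcrh (-0.37 ± 0.04) and Cox7a2l (-0.325 ± 0.042) followed, apart from Cox7c (-0.45 ± 0.10), which was also lower in naive mice. The higher genes were Uqcrc1 (0.15 ± 0.04) and Sdhaf2 (0.14 ± 0.05). In all 18 genes had prefrontal arrays wholly below the caudate-putamen arrays and 0 wholly above, against 15.3% and 14.7% of all probe sets.

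Between strains few members were called with naive prefrontal replicates 3 and 4. More were called with replicates 1 and 2. The counts were 5 in place of 1 for TgR minus FVB/N and 8 in place of 3 for TgS minus TgR. For TgS minus FVB/N in naive prefrontal cortex the count was 6 in place of 1. The shares of all probe sets called with replicates 1 and 2 are not given for these comparisons. The larger counts are therefore not read as a result about the members. Over regions and treatments, 0 of the 48 genes were called between TgS and FVB/N (4 at an unadjusted p under 0.05 had the smallest adjusted p of 0.0887, for Atp5mpl), against 11.6% of all probe sets, 6.6% higher and 5% lower. Between TgR and FVB/N 1 gene was called, against 4.73%, 2.6% higher and 2.13% lower. It was Sdhaf1, higher by 0.24 ± 0.04 in TgR (adjusted p = 0.00266). Between TgS and TgR 3 were called, against 17.9%, 8.12% higher and 9.76% lower. Sdhaf1 (-0.24 ± 0.04) and Atp5g2 (-0.16 ± 0.04) were lower in TgS, and Sdhaf2 (0.15 ± 0.04) was higher. Sdhaf1 averaged 7.90 in TgS, 8.195 in TgR and 7.88 in FVB/N prefrontal arrays after MPTP, and in the caudate-putamen after MPTP 8.09 in TgS, 8.58 in the single TgR array and 7.995 in FVB/N. In naive prefrontal cortex it averaged 8.345 in TgS, 8.37 in TgR and 8.40 in FVB/N, where TgR was not the highest. Within naive mice, TgS against FVB/N called 0 genes in the caudate-putamen, against 9.25% of all probe sets (6.21% higher and 3.04% lower), and 1 in the prefrontal cortex, against 3.73% (1.05% higher and 2.68% lower). That gene was Cox6a2 (0.465 ± 0.070, adjusted p = 0.00105), and with naive replicates 1 and 2 its difference was -0.02.

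Partners of these complexes were counted from lists chosen by name, and each list was counted against both sets of naive prefrontal arrays; the second count was added after the first had been seen. Of all probe sets, 22% were lower and 28.5% higher against replicates 3 and 4, and 41.4% lower and 24.8% higher against replicates 1 and 2, so that 3 of 7, 5 of 13 or 4 of 15 genes lower against replicates 1 and 2 is near or below the background. The Nduf prefix stood for complex I, the NADH dehydrogenase. Of its 39 genes, 27 were lower and 0 higher in the MPTP prefrontal cortex, with a median of -0.15. Against naive replicates 1 and 2, 34 were lower and 2 higher, and in the caudate-putamen 0 were called. The prefix takes in Ndufa4, which is also counted among the partners of cytochrome c below, so these lists overlap. Assembly factors of the complexes had 11 of 25 lower and 0 higher, and 14 lower and 5 higher against replicates 1 and 2. Pet100 (-0.36 ± 0.06) and Cox17 (-0.265 ± 0.042), both of complex IV, fell against either set, while Tmem70 of complex V (-0.30 ± 0.05) differed by -0.01 ± 0.05 against replicates 1 and 2.

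Cytochrome c and other partners had 5 of 7 lower and 0 higher, and 3 lower and 0 higher against replicates 1 and 2. Atpif1, the inhibitor of the ATP synthase, was 1.44-fold lower (-0.53 ± 0.06, adjusted p = 1.67e-06) and fell by 0.40 ± 0.06 against replicates 1 and 2. Cycs, the electron carrier cytochrome c itself, fell by 0.30 ± 0.06, but differed by 0.00 ± 0.05 against the other set. Tricarboxylic acid cycle genes went both ways, with 8 of 15 lower and 3 higher, and 4 lower and 3 higher against replicates 1 and 2. Fh1 (fumarase) fell against either set, by 0.22 ± 0.04 and 0.29 ± 0.05. The other genes with the smallest p lost their call or turned: Ogdh (0.21 ± 0.04) and Dlst (0.19 ± 0.04) differed by 0.05 ± 0.04 and 0.01 ± 0.04 against replicates 1 and 2, and Dld (-0.27 ± 0.06) by 0.185 ± 0.060. In the caudate-putamen 1 gene of the cycle was lower.

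Nuclear regulators of respiratory genes had 7 of 13 higher and 2 lower in the MPTP prefrontal cortex, and 3 higher and 5 lower against naive replicates 1 and 2. Gabpb1 and Gabpa, the subunits of GABP, rose against either set, Gabpb1 by 0.50 ± 0.06 and 0.27 ± 0.07 and Gabpa by 0.27 ± 0.05 and 0.44 ± 0.05. Nrf1 (0.37 ± 0.07) and the coactivator gene Pprc1 (0.32 ± 0.06) rose against replicates 3 and 4 and differed by 0.05 ± 0.08 and 0.02 ± 0.07 against 1 and 2. In the caudate-putamen 0 of the 13 were called. Genes of nucleotide and energy exchange had 4 of 10 lower and 2 higher in the prefrontal cortex, and 5 lower and 1 higher against replicates 1 and 2. The pore gene Vdac3 fell by 0.29 ± 0.03 and 0.32 ± 0.04, and the brain creatine kinase gene Ckb rose by 0.125 ± 0.036 and 0.10 ± 0.04. The ADP/ATP carrier gene Slc25a4 (-0.21 ± 0.05) differed by 0.055 ± 0.052 against replicates 1 and 2. In the caudate-putamen 1 gene of this list was lower and 1 higher.

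Markers of several cell types moved in the same prefrontal arrays. Endothelial markers had 6 of 7 higher and 0 lower after MPTP, and their mean log2 signal ran from 8.21 to 8.59 in MPTP arrays, from 7.37 to 8.36 in naive replicates 3 and 4 and from 8.36 to 8.58 in naive replicates 1 and 2, against which 1 was higher and 2 lower. Microglial markers had 4 of 8 higher and 1 lower (9.21 to 9.445 in MPTP arrays, 8.955 to 9.20 in naive replicates 3 and 4), and 3 higher and 4 lower against replicates 1 and 2. Mural markers had 3 of 7 higher and 0 lower (7.88 to 8.24 and 7.76 to 8.13), and 1 higher and 5 lower against replicates 1 and 2. These vascular and immune markers thus depended on the naive set.

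Of 6 markers of cortical glutamatergic neurons, 1 was higher and 3 were lower (9.03 to 9.38 in MPTP arrays, 9.10 to 9.455 in naive replicates 3 and 4), and 0 higher and 1 lower against replicates 1 and 2. Parvalbumin interneuron markers had 1 of 4 higher and 2 lower (7.735 to 7.97 and 7.855 to 8.15), and 0 higher and 1 lower against replicates 1 and 2. That last gene was Tac1, which is also on the striatal projection neuron list, while Pvalb itself was not called there. Striatal projection neuron markers had 2 of 6 higher and 2 lower (8.47 to 8.76 and 8.64 to 8.81), but 0 higher and 5 lower against replicates 1 and 2, where their level was 8.96 to 9.94 and the median difference -0.72. Neuronal markers thus also depended on the naive set.

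Oligodendrocyte markers had 0 of 7 higher and 2 lower (9.76 to 10.09 in MPTP arrays, 9.93 to 10.38 in naive replicates 3 and 4), and 2 higher and 5 lower against replicates 1 and 2. Astrocyte markers had 3 of 8 higher and 3 lower (10.76 to 10.955 and 10.56 to 10.92), and 1 higher and 2 lower against replicates 1 and 2. Thalamic markers had 0 of 7 higher and 1 lower, and 0 higher and 4 lower against replicates 1 and 2. Of 5 olfactory bulb markers 0 were called against replicates 3 and 4, where their level varied widely between arrays (6.95 to 9.45 in MPTP arrays, 6.81 to 9.78 in naive arrays). All 5 were lower against replicates 1 and 2 (8.78 to 10.24), with a median difference of -1.21. Of 5 choroid plexus markers 0 were called against either set.

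In the caudate-putamen, where 0 members were called, 7 of 8 microglial markers rose. The part of cell mixture in the prefrontal falls was not tested. The 5′ minus 3′ actin signal, a sign of RNA integrity, ran from -0.83 to -0.62 in MPTP prefrontal arrays, from -0.92 to -0.72 in naive replicates 3 and 4 and from -2.30 to -0.79 in naive replicates 1 and 2.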

How the data were processed

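Total RNA of 29 samples was measured on Affymetrix mouse arrays. The deposited table holds log2 signals per probe set. RMA is named with Affymetrix Expression Console and with Affymetrix Power Tools, per the submitters' processing notes, and the sources used here do not give versions or settings. RMA is known to compress fold changes, no detection calls came with the values, and the number of arrays limits the precision. Values were used as deposited, without a filter. The table holds 22690 probe sets; 64 controls were left out.

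One model in limma 3.58.1 (R 4.3.3) gave each of 12 groups a mean over 23 arrays, with 11 residual degrees of freedom, lmFit and eBayes at default settings, and Benjamini-Hochberg adjustment over 22626 probe sets within each of 12 comparisons. Strains were weighted equally. Groups of 1 or 2 arrays were assumed to vary alike. The procedure was tested on simulated data. Motifs were searched as exact letters on both strands.

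The members, lists and tests were chosen with earlier results of these data known. Every called member could be named where 30 or fewer were called, otherwise the 15 largest called rises and falls, and the 4 smallest p where fewer than 4 were called; the complex IV isoform pairs and c-ring genes could always be named, as could up to 4 genes of each pathway list by smallest p. Other members, marker genes and control features, and the genes of the array plots, were named after their values were seen. Alternatives were other sets of naive prefrontal arrays with and without a set term, a replicate block, each region alone, quantile normalization, leaving out the dimmest 0.25 of probe sets, trended and robust variance, averaging a gene's probe sets, leaving out each array and, added after seeing the data, FVB/N and TgS only, and the lists counted against naive prefrontal replicates 1 and 2.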

Additional observations from a re-analysis of the deposited data

Results flagged for a closer look

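For 20 genes the MPTP response differed between regions in limma's test of the difference itself (prefrontal cortex minus caudate-putamen, log2). In complex II and its assembly factors these were Sdhaf1 (-0.35), Sdhaf4 (-0.32) and Sdhb (-0.14). In complex III they were Uqcrh (-0.30), Uqcr10 (-0.29), Uqcr11 (-0.24), Uqcrq (-0.22) and, with the opposite sign, Uqcrc1 (0.22, but -0.11 with naive prefrontal replicates 1 and 2). In complex IV they were Cox6a2 (-0.34), Cox7a2l (-0.29), Cox7a2 (-0.195), Cox6c (-0.19), Cox5b (-0.165) and Cox6b1 (-0.15). In complex V they were Atp5l (-0.32), Atp5e (-0.31), Atp5mpl (-0.29), Atp5o (-0.21), Atp5j2 (-0.19) and Atp5c1 (-0.17). For all of these, a regional difference in response and the label set of the prefrontal arrays cannot be told apart. The response of Cox6a2 in the prefrontal cortex differed between strains (limma adjusted p = 0.0185).

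Single naive prefrontal arrays stood far from the other 3 of their strain in 5 of 144 checks of 4 arrays, where chance gives about 1 in 20. In FVB/N replicate 2, Cox6b1 read 12.94 (the others 12.88 to 12.89) and Uqcr11 read 11.52 (11.64 to 11.65). In TgR, Atp5b read 12.9 in replicate 2 (13.08 to 13.10), Atp5g3 read 12.8 in replicate 3 (12.92 to 12.94) and Sdhb read 11.94 in replicate 1 (11.80 to 11.82).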

How the results depend on the processing

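The number of members called for MPTP in the prefrontal cortex was 28, with 50.5% of all probe sets called. It ran from 26 to 39 under all alternatives run, and from 26 to 32 without 1 array. With naive replicates 1 and 2, 34 members were lower and 5 higher, with 66.1% of all probe sets called. In the caudate-putamen the number was 0, and 0 to 1 without 1 array. Shares over all probe sets are not given for the other counts of this section, so these are not read as results about the members. Without a set term (a model term that sets naive prefrontal replicates 3 and 4 apart), all 29 arrays gave 20 members for the regions after MPTP, 10 for the difference between responses, 0 for the strain test in the prefrontal cortex, 0 for TgR minus FVB/N and 0 for TgS minus FVB/N in naive prefrontal cortex. With the set term the strain test gave 0 and that naive contrast 2. With naive replicates 1 and 2 the counts were 3 for the strain test, 1 for TgS minus FVB/N, 5 for TgR minus FVB/N, 8 for TgS minus TgR and 6 for TgS minus FVB/N in naive prefrontal cortex. FVB/N and TgS only gave 11 for the difference between responses, each region alone gave 0 for the prefrontal strain test, trended and robust variance gave 5 for TgS minus TgR, the mean of all probe sets gave 1 for TgS minus FVB/N and 1 in naive caudate-putamen, and the filter on dim probe sets gave 1 there. The cause was not tested.

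Without 1 array the counts ran from 28 to 33 for the regions after MPTP, 7 to 14 in naive mice, 13 to 22 for the difference between responses, 0 to 1 for the prefrontal strain test, 0 to 0 for that of the caudate-putamen, 0 to 1 for TgS minus FVB/N (0 to 1 in naive caudate-putamen, 1 to 2 in naive prefrontal cortex), 1 to 2 for TgR minus FVB/N and 3 to 4 for TgS minus TgR. The count of 7 came without TgS naive replicate 4 of the prefrontal cortex, and the 1 for MPTP in the caudate-putamen without its TgS naive replicate 1. Without the only TgR MPTP array of the caudate-putamen the comparisons that use it have no value.

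Differences that changed sign were those of Uqcrc1 with naive replicates 1 and 2 or with the set term (MPTP in the prefrontal cortex -0.145, between responses -0.11), Cox6b2 between naive regions under the same settings (0.0167), Cox6a2 between TgS and FVB/N in naive prefrontal cortex with replicates 1 and 2 (-0.02), and Sdhaf2 with the mean of its probe sets (regions after MPTP -0.0042, TgS minus TgR -0.0125). With the set term, the naive prefrontal mean over the strains again rests on replicates 1 and 2. For Uqcrc1 and Cox6b2 the 2 settings are thus the same comparison, not separate checks.

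Equal replicate numbers did not pair the arrays of different strains within a region and treatment: the 10 correlations of deviations ran from -0.36 to 0.15. Pairing of prefrontal with caudate-putamen arrays was not tested. With the replicate block 28 members were called for MPTP in the prefrontal cortex, 17 for the difference between responses, 31 for the regions after MPTP and 12 in naive mice, and the other counts were those of the fit without it.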
